A study of Mus musculus with 20 samples.

Results

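The trimethyl mark on lysine 27 of histone H3 (H3K27me3) was set against input DNA in control mouse germline stem cells (GSCs), the cultured counterpart of spermatogonial stem cells, to ask which genes carry the Polycomb mark in these cells. This comparison took 4 of the 20 libraries of the series, 2 H3K27me3 libraries and 2 input libraries, over all 25965 gene windows of the chromatin table. Control cells carried floxed alleles of the H3K4 methyltransferase Kmt2b together with Rosa26-CreERT2, a tamoxifen-inducible recombinase at a broadly active locus, and received only ethanol as a mock treatment. The knockout cells used for comparison had the same genotype and received 4-hydroxytamoxifen (4-OHT) at 1 µM, so that loss of Kmt2b and exposure to 4-OHT go together. Both kinds of cells in the H3K27me3 comparison were cultured on fibroblast feeders and harvested on day 6. The study used duplicate cell lines, but nothing ties a replicate number to a line. The p-values therefore measure the spread between these libraries, with that spread shared among windows of like level.

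H3K27me3 is written by Polycomb repressive complex 2, with Ezh2 or Ezh1 as the catalytic subunit and Eed and Suz12 as partners. In stem cells and in the male germ line the mark lies over CpG-rich promoters of developmental regulators, many of which also carry H3K4me3, and it is associated with low transcription. Hox genes, which set position along the body axis, are its best known targets.

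The H3K27me3 libraries held 14616443 and 10922626 mapped reads, and the input libraries held 10967790 and 14405261. A window was thin: over all windows the median was 5 and 5 reads in the H3K27me3 libraries, and 5 and 8 in the inputs. One read was worth between 0.0684 and 0.0916 RPM, the unit of reads scaled to the mapped reads of a library, in these 4 libraries. Values below 1 RPM therefore rest on few reads. The files give 1 window per gene, and its size and place are not given in the sources used here.

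H3K27me3 was higher than input at a limited group of genes. The ratio was taken as the log2 of RPM plus 0.5 in H3K27me3 minus the same in input, and limma with Benjamini-Hochberg adjustment called 3368 of 25965 windows higher (13%) and 1176 lower (4.53%) at an adjusted p under 0.05. A window was called marked where it was called higher and its log2 ratio was at least 1 in both same-numbered pairs of libraries. This held for 2541 windows (9.79%). The ratio limit with no test gave the same 2541 windows, so the test removed none of them. The other 827 windows called higher missed that ratio in at least 1 pair. The median log2 ratio was 2.02 over marked windows, with a range of 1.03 to 3.65, and -0.10 over all windows.

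Marked windows had a median of 4.65 and 3.02 RPM in the 2 H3K27me3 libraries, against 0.547 and 0.486 RPM in the 2 inputs. Windows that were not marked had 0.342 and 0.366 RPM in H3K27me3, against 0.456 and 0.555 RPM in input. Both H3K27me3 libraries stood above both inputs at all 2541 marked windows, a separation that the rule itself makes likely. The replicates were unequal in strength, because the ratio of the first pair exceeded that of the second at 2061 marked windows (81.1%), with medians of 2.30 and 1.75. A ratio of at least 1 was reached by 3929 windows in the first pair and by 2838 in the second. The threshold cut through a continuum: the 191 windows whose weaker pair lay between 1.0 and 1.1 had medians of 2.33 and 1.65 RPM in H3K27me3, against 0.456 and 0.486 RPM in input, and the 229 windows between 0.9 and 1.0 had medians of 2.05 and 1.56 RPM in H3K27me3, against 0.456 and 0.486 RPM in input.

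The test rested on both inputs. With either input left out, the spread came from the 2 H3K27me3 libraries alone, and limma called 0 windows at the adjusted threshold, with 2939 and 3069 windows higher at an unadjusted p under 0.05. The count of lower windows was also sensitive to scaling: when each library was centred on its median window, 3392 windows were called higher and 232 lower, against 3368 and 1176 without centring.

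The windows with the highest ratios included genes of neurons, blood, epithelium and somatic gonad as well as homeobox genes. They were taken in order of the ratio, so their values are a description. Insl3, a peptide hormone of Leydig cells (chr8:71689214-71690575, plus strand, mm10), had 13.1 and 9.61 RPM in H3K27me3, against 0.456 and 0.417 RPM in input. Vav1, a guanine nucleotide exchange factor of blood cells, had 10.3 and 8.24 RPM in H3K27me3, against 0.456 and 0.139 RPM in input. At both genes each H3K27me3 library was far above each input. Their log2 ratios were 3.65 (SE 0.41) and 3.64 (SE 0.40), with limma adjusted p of 3.35e-15 and 1.29e-15. These p-values rest on the spread shared by windows of like level, and both genes were picked by their ratio.

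Lypd3, a membrane-anchored protein of stratified epithelia, had 11.7 and 6.41 RPM in H3K27me3, against 0.365 and 0.208 RPM in input. Meis3, a homeobox factor that works with Hox proteins, had 12.1 and 10.2 RPM in H3K27me3, against 0.456 and 0.555 RPM in input. Six3, a homeobox factor of the forebrain and eye, had 8.55 and 6.23 RPM in H3K27me3, against 0.0912 and 0.278 RPM in input. The groups did not overlap at these genes, and their log2 ratios were 3.55, 3.53 and 3.52. Further windows among the 12 highest were the adaptor gene Shd (3.50), the synaptotagmin gene Syt6 (3.46), Gm12116 (3.45), 1700125G02Rik (3.40), the diacylglycerol kinase gene Dgkz (3.39) and the synuclein gene Sncb (3.37).

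**Figure D1:**
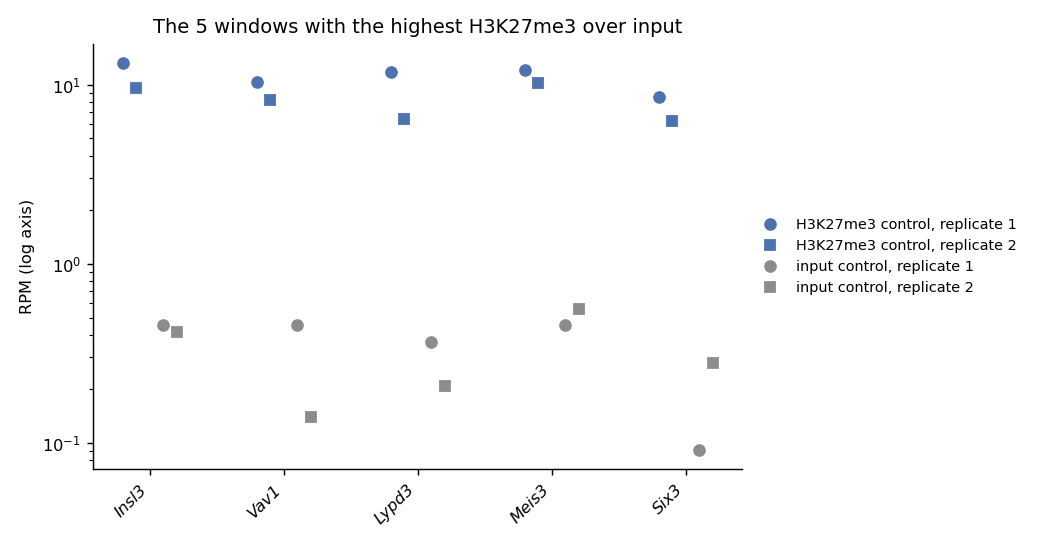
H3K27me3 and input in each control library, in RPM on a log axis, for the 5 windows with the highest log2 ratio. Both H3K27me3 libraries lie above both inputs in each of the 5, as at Insl3 with 13.1 and 9.61 RPM in H3K27me3 against 0.456 and 0.417 RPM in input.

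The promoters of the first 4 of these genes are shown beside those of 2 ribosomal protein genes, Rpl10 and Rpl10a, to let CpG-containing promoters with and without the mark be compared. Each is the 250 bases before the RefSeq start on GRCm38.p6, all on the plus strand, with every CG in capitals. They lie at chr8:71689002-71689251 for Insl3, chr17:57278850-57279099 for Vav1, chr7:24636320-24636569 for Lypd3 and chr7:16175145-16175394 for Meis3, and at chrX:74270566-74270815 for Rpl10 and chr17:28328221-28328470 for Rpl10a.
Insl3: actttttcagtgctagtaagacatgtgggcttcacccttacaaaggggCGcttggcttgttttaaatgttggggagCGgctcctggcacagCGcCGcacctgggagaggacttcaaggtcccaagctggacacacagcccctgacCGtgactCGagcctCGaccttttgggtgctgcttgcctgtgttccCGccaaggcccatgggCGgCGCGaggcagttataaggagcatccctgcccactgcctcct
Vav1: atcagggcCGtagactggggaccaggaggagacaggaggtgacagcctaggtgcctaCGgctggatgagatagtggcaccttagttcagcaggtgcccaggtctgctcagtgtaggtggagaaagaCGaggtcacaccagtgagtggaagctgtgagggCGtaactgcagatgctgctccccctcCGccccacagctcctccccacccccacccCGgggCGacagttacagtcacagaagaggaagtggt
Lypd3: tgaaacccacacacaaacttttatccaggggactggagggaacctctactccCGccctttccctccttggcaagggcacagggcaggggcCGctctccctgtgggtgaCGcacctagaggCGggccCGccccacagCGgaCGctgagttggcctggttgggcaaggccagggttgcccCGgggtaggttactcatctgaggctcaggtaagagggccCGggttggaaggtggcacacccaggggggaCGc
Meis3: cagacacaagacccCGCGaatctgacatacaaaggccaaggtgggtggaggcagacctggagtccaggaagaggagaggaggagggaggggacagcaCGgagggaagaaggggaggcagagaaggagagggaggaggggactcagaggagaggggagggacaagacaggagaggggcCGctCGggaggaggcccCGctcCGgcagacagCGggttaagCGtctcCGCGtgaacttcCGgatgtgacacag
Rpl10: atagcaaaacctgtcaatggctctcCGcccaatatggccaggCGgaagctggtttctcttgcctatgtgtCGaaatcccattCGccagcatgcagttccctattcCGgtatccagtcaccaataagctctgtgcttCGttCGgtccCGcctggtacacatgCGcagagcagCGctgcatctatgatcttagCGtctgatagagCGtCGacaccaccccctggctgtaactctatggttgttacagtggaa
Rpl10a: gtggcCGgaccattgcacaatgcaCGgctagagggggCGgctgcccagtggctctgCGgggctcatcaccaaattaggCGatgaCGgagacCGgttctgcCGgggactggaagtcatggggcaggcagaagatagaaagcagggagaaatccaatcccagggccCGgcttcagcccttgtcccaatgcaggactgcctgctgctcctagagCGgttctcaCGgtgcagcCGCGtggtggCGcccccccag
The marked promoters held 11, 7, 10 and 12 CG, and the ribosomal ones 13 and 14, so the count of CG alone did not set these examples apart. For Meis3 the RefSeq start lies 305 bases after the start listed with its window. Its 250 bases therefore lie within the listed gene and not before it. Rpl10 and Rpl10a had log2 ratios of -0.24 and -0.34.

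Among 21 gene lists, the 3 with the largest shares of marked genes were all of embryonic transcription factors, set against 9.79% of all windows. Hox genes, described below, were 1 of these 3. Embryonic homeobox factors outside the Hox clusters were marked at 65 of 93 genes (69.9%), with a median log2 ratio of 1.99. Pax, Sox, Gata, Tbx and Zic factors were marked at 30 of 56 (53.6%), lineage factors with a basic helix-loop-helix domain at 27 of 61 (44.3%) and forkhead factors at 18 of 43 (41.9%). Of the 4 lists counted here, 1 gene, a forkhead factor, was called lower, beside 4.53% of all windows. The helix-loop-helix and forkhead shares were below those of neurotransmitter receptors (46.7%), secreted ligands (46.2%) and Sertoli and Leydig markers (45%).

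Dbx1, which patterns interneurons of the spinal cord, had 12 and 6.96 RPM in H3K27me3, against 0.456 and 0.417 RPM in input. Pitx1, a hindlimb and pituitary factor, had 11.4 and 6.23 RPM in H3K27me3, against 0.0821 and 0.833 RPM in input. Both genes had H3K27me3 well above input in each library, with log2 ratios of 3.37 and 3.34. Foxb2 (3.32), Foxs1 (3.22) and Foxi1 (3.02) led the forkhead factors. Sox17, a factor of endoderm and blood vessels, reached 3.05, Tbx1, of the pharyngeal arches, 2.94, and Pax5, of B cells, 2.89. The helix-loop-helix list was led by Hand1, of heart and trophoblast (3.29), Neurod2, of neurons (3.14), and Ferd3l (3.07).

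**Figure D2:**
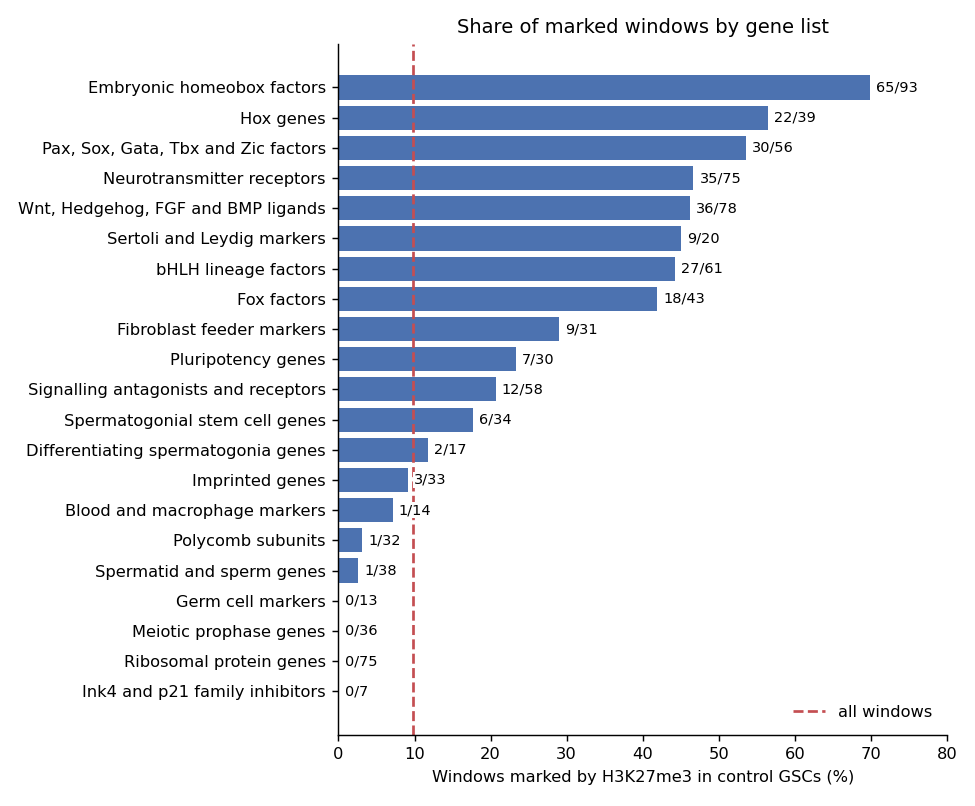
Percent of the genes of each list that carried H3K27me3 in control cells, with marked and measured genes given beside each bar and the share of all windows (9.79%) as a line. Homeobox and Hox genes stand highest, and ribosomal protein genes, germ cell markers, meiotic prophase genes and Ink4 and p21 family inhibitors had 0 marked genes.

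Hox genes were marked at 22 of 39 (56.4%, beside 9.79% of all windows), with unequal counts over the 4 clusters. HoxA had 9 of 11 genes marked (median log2 ratio 2.21), HoxC 6 of 9 (2.35) and HoxD 7 of 9 (2.72), while HoxB had 0 of 10 (0.14). Hoxd11, a limb and axial gene, had 12.7 and 7.32 RPM in H3K27me3, against 0.274 and 0.833 RPM in input, a log2 ratio of 3.32. Hoxa3 and Hoxd9 followed at 3.10 and 3.08.

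In HoxB the ratios ran between -0.58 and 1.31. Hoxb13, the highest of them, had 2.39 and 0.824 RPM in H3K27me3, against 0.182 and 0.417 RPM in input. It was called higher (log2 ratio 1.31, SE 0.37, limma adjusted p 0.00418) but its second pair was below the ratio of 1. That call was lost without the first H3K27me3 library (adjusted p 0.302 by limma). Hoxb8 had 0.958 and 0.916 RPM in H3K27me3, against 0.0912 and 0.486 RPM in input, and did not pass the test (log2 ratio 0.91, limma adjusted p 0.0693), although it passed with median centring (adjusted p 0.0326 by limma). RNA was above 1 RPM, and at most 54.4 RPM, for the 9 HoxB genes with a value, below 1 RPM for 5 of 7 HoxA genes and 4 of 5 HoxC genes, and below 1 RPM for all 7 HoxD genes with a value. Marked Hox genes above 1 RPM were Hoxa2, with 5.64 and 6.54 RPM, and Hoxc10, with 1.64 and 1.42 RPM, named after their values were seen. These RNA values are not divided by gene length, so they are set against thresholds and not ranked between genes.

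**Figure D3:**
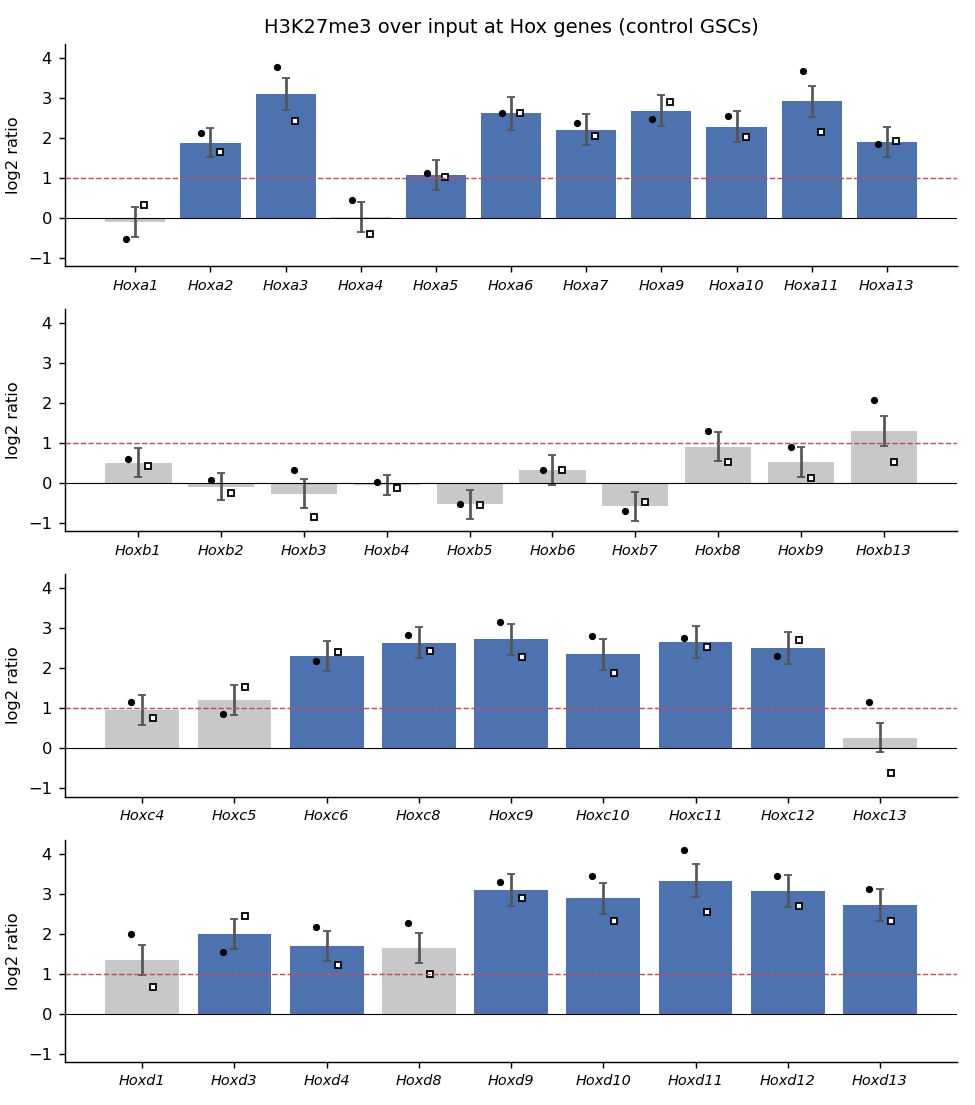
Log2 ratio of H3K27me3 over input for each Hox gene in control cells, by cluster and in order of gene number, with a point for each of the 2 pairs of libraries. HoxA, HoxC and HoxD genes mostly lie above 1 and HoxB genes mostly below it.

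Of 7 windows with a microRNA gene symbol, 2 were marked, beside 9.79% of all windows, and both lie in HoxC on chromosome 15. With so few windows the count is a description. A mature sequence of each is shown, from RefSeq on GRCm38.p6, because microRNAs of the Hox clusters act on Hox transcripts. The seed (bases 2 to 8) is in capitals.
mmu-miR-196a-5p: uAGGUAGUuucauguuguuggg
mmu-miR-615-3p: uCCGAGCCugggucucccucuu
Mir196a-2 had 12.6 and 8.42 RPM in H3K27me3, against 0.729 and 0.555 RPM in input (log2 ratio 3.25). Mir615 had 8.69 and 4.39 RPM in H3K27me3, against 0.729 and 0.625 RPM in input (log2 ratio 2.51). The 2 microRNA windows in HoxB, Mir196a-1 and Mir10a, were not marked, with log2 ratios of 0.83 and 0.22.

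Many secreted signals of development were marked, set against 9.79% of all windows. Wnt, Hedgehog, FGF and BMP ligands were marked at 36 of 78 (46.2%), and a list of signalling antagonists and receptors, which also holds TGF-beta receptors and Notch ligands and receptors, at 12 of 58 (20.7%), with median log2 ratios of 1.26 and 0.07. The difference between the lists was not tested. Wnt10a had 12.1 and 7.05 RPM in H3K27me3, against 0.365 and 0.555 RPM in input, and Wnt1, a midbrain signal, had 12.5 and 7.97 RPM in H3K27me3, against 0.729 and 0.694 RPM in input. Among the antagonists, the BMP inhibitor Grem1 (3.08) and the Wnt inhibitors Dkk1 (2.57) and Sfrp5 (2.46) had the highest log2 ratios. Neurotransmitter receptors were marked at 35 of 75 (46.7%), led by the dopamine receptor gene Drd5 (3.05) and the serotonin receptor genes Htr2a (2.96) and Htr1a (2.93).

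Germ cell markers were marked at 0 of 13, meiotic prophase genes at 0 of 36, and spermatid genes at 1 of 38, beside 9.79% of all windows. At that share few marked genes would be counted in any lists of these sizes, so the counts are given as a description. Spermatid genes had little of either mark, with a median of 0.294 RPM of H3K4me3 and RNA below 1 RPM at 26 of 38 genes. The marked spermatid gene was H1fnt, a linker histone of spermatids, with 4.72 and 3.02 RPM in H3K27me3, against 1.28 and 1.11 RPM in input (log2 ratio 1.34, limma adjusted p 0.00668).

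Of the genes of differentiating spermatogonia, 2 of 17 were marked (11.8%), near the 9.79% of all windows. Kit, the stem cell factor receptor that appears as spermatogonia differentiate, had 3.28 and 2.75 RPM in H3K27me3, against 0.274 and 0.902 RPM in input (log2 ratio 1.75, SE 0.38, limma adjusted p 5.98e-05). Kit also had 21.7 and 23.7 RPM of H3K4me3 and 56.0 and 49.2 RPM of RNA, so both marks and transcript were found in the same culture. Dmrtb1, which acts at the entry into meiosis, had 2.26 and 3.11 RPM in H3K27me3, against 0.456 and 0.278 RPM in input (log2 ratio 1.87). In a bulk culture, fewer marked cells and less mark per cell cannot be told apart, and whether both marks lay on the same chromatin was not tested.

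Spermatogonial stem cell genes were marked at 6 of 34 (17.6%, beside 9.79% of all windows), with T (2.84), Pdx1 (2.05) and Lhx1 (1.92) the highest. T, Lhx1 and Pdx1 are also factors of mesoderm, kidney and pancreas, and all 3 had RNA below 1 RPM. Pluripotency genes were marked at 7 of 30 (23.3%, beside the same 9.79%). Fgf4, a growth factor of the inner cell mass, had 11.4 and 6.32 RPM in H3K27me3, against 0.547 and 0.694 RPM in input (3.01), and Prdm14 and Otx2 reached 2.84 and 2.79. Imprinted genes were marked at 3 of 33 (9.09%, near the 9.79% of all windows), namely Kcnq1 (2.27), Magel2 (2.11) and Grb10 (1.92).

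Ribosomal protein genes, cell cycle inhibitors and Polycomb subunits stood under the 9.79% of all windows. Ribosomal protein genes were marked at 0 of 75 and called lower at 9, beside 1176 of all 25965 windows called lower (4.53%). Their median log2 ratio was -0.43, near the -0.40 of all windows with 10 to 100 RPM of RNA and the -0.40 of those with more. The cell cycle inhibitors of the Ink4 and p21 families were marked at 0 of 7, with a highest ratio of 0.25. In a list of 7 genes few marked ones would be counted at the share of all windows. Of the Polycomb subunits 1 of 32 was marked. This was Phf19, a Tudor-domain partner of Polycomb repressive complex 2, with 4.99 and 2.47 RPM in H3K27me3, against 0.729 and 0.555 RPM in input (log2 ratio 1.83, limma adjusted p 3.19e-05).

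The identity of the cells was read from control RNA. All 13 germ cell markers were at or above 1 RPM and summed to 2549 and 2479 RPM. Fibroblast feeder markers were at or above 1 RPM at 26 of 31 and summed to 652 and 691 RPM. Sertoli and Leydig markers were at or above 1 RPM at 7 of 19 genes. Of their sum of 629 and 612 RPM, Dmrt1, which spermatogonia also express and which is also on the list of differentiating spermatogonia, gave 603 and 585 RPM. The other 18 summed to 26.5 and 26.1 RPM, with no read for Cyp17a1 and Hsd3b1. Blood markers summed to 7.35 and 7.77 RPM, with no read for Ptprc and Hbb-b1.

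The same lists were read for the mark, beside 9.79% of all windows. Feeder markers were marked at 9 of 31 (29.0%), and 8 of the 9 had RNA at or above 1 RPM. Cdh11, a cadherin of mesenchyme, had 7.66 and 4.85 RPM in H3K27me3, against 0.274 and 0.555 RPM in input (2.87), with 7.85 and 7.41 RPM of RNA. Loxl1 (2.48), which crosslinks elastin, and the PDGF receptor gene Pdgfra (2.22) followed. Sertoli and Leydig markers were marked at 9 of 20 (45%). After Insl3, the luteinising hormone receptor gene Lhcgr was at 3.07 and the niche factor gene Gdnf at 3.01. Blood markers were marked at 1 of 14 (7.14%, near the share of all windows), namely Fcgr3 (1.43). The part of feeder cells in these values was not tested.

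Most marked genes had low RNA. Of 2470 marked genes with an RNA value, 1646 (66.6%) averaged under 1 RPM, against 44.4% of all 25067 genes and 41.9% of those not marked. The median RNA was 0.364 and 0.383 RPM in the 2 control libraries for marked genes, against 2.11 and 2.16 RPM for all genes. The share of marked genes was highest between 0.1 and 1 RPM, at 840 of 3862 (21.8%), and was 806 of 7257 (11.1%) under 0.1 RPM. It was 632 of 4834 (13.1%) between 1 and 10 RPM and 155 of 7385 (2.10%) between 10 and 100 RPM. The silent genes as a whole were therefore not mostly marked.

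H3K4me3 did not separate marked genes from the rest by its median, at 8.47 RPM over marked windows and 8.65 RPM over all, but it did by its range. The share of marked windows was 2.73% under 1 RPM of H3K4me3 and 1.58% at 20 RPM or more. It was 30.6% between 1 and 3 RPM, 37.4% between 3 and 10 RPM and 16% between 10 and 20 RPM. Marked windows were thus found mainly at intermediate H3K4me3. H3K9me3 averaged at least 1 RPM at 50 marked windows (1.97%), against 819 of all windows (3.15%). The treatment and harvest day of the cells behind the H3K9me3 libraries are not given in the sources used here.

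**Figure D4:**
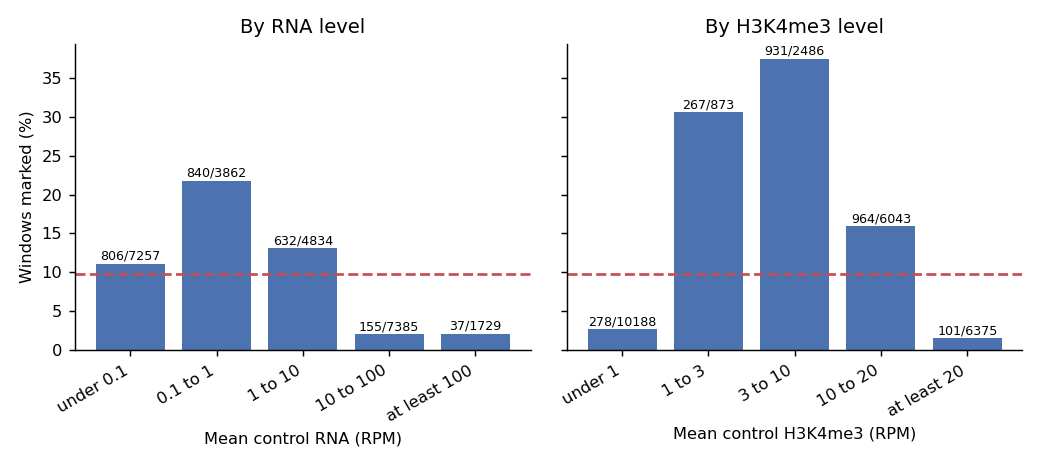
Percent of windows that carried H3K27me3 in control cells, by band of mean control RNA and by band of mean control H3K4me3, both in RPM, with marked and measured windows over each bar and the 9.79% of all windows as a dashed line. The share peaks at 21.8% between 0.1 and 1 RPM of RNA and at 37.4% between 3 and 10 RPM of H3K4me3, and is 2.14% and 1.58% in the highest bands.

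A few marked genes had high RNA. At or above 100 RPM there were 37, of which 24 were annotated pseudogenes, such as Gm6139 with 834 and 847 RPM of RNA and Rps2-ps6 with 787 and 800 RPM. Near-identical copies can share reads, so the RNA of pseudogenes, and their chromatin signal, is uncertain. Among the 8 protein-coding genes were Lrp1b, a lipoprotein receptor gene, 6330512M04Rik, the phospholipase gene Plcb1 and the T cell adaptor gene Fyb. They had the most RPM of the 8, which is not divided by gene length, and were looked up after their values were seen. Mean control H3K4me3 was 0.173 RPM at the window of 6330512M04Rik, against 6.03 RPM at Lrp1b, 16.8 RPM at Plcb1 and 11.7 RPM at Fyb. Whether the window of 6330512M04Rik holds the start of its RNA was not tested. Plcb1 had 5.40 and 2.75 RPM in H3K27me3, against 0.365 and 0.833 RPM in input, with 261 and 269 RPM of RNA. Dgkz, of the 12 highest windows, had 13.3 and 5.95 RPM in H3K27me3, against 0.456 and 0.347 RPM in input, with 86.5 and 85.6 RPM of RNA.

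Promoter CG content and RNA together went with the mark. A RefSeq promoter within 500 bases of the listed start was found for 14291 windows, among them 1325 of the 2541 marked (52.1%). With under 80% matched, a check over all marked windows is void, and the shares describe only windows with a sequence, of which 9.27% were marked. The search was for the letters CG, which read the same on both strands, in the 250 bases before the start. The median was 11 CG in marked and 10 CG in all promoters with a sequence.

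Among genes under 1 RPM of RNA, 213 of 3681 promoters with 0 to 4 CG were marked (5.79%), 237 of 906 with 5 to 9 (26.2%), and 178 of 348 with 10 to 14 (51.1%). With 15 or more, 261 of 503 were marked (51.9%). Among genes at or above 10 RPM, 29 of 3736 promoters with 15 or more CG were marked (0.776%). Promoters with 15 or more CG were thus marked in about 1 of 2 genes where RNA was under 1 RPM, and in under 1 of 100 where it was at or above 10 RPM.

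**Figure D5:**
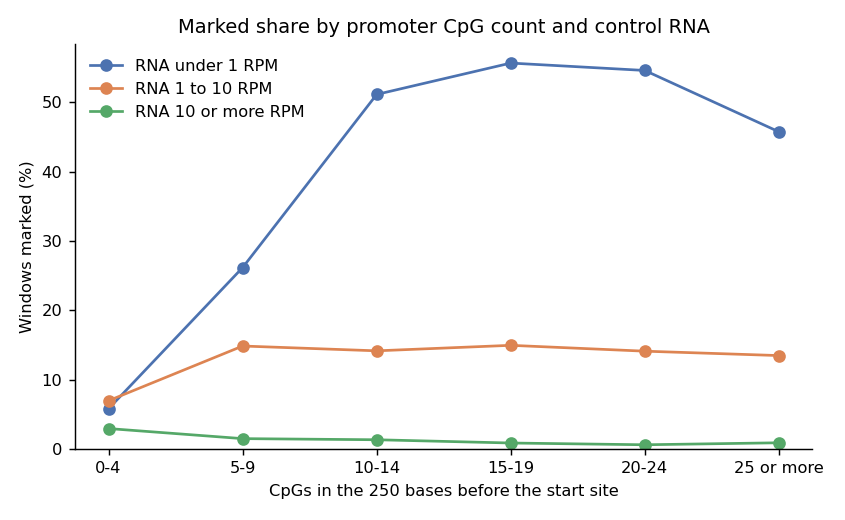
Percent of windows that carried H3K27me3, by the number of CG in the 250 bases before the RefSeq start, for genes grouped by mean control RNA. Under 1 RPM of RNA the share is 5.79% at 0 to 4 CG and 51.1% at 10 to 14 CG, and it is under 3% in every band at 10 RPM or more.

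Windows called lower than input held very few H3K27me3 reads. Among the lowest ratios were Morc1, a germ cell factor that silences transposons (-1.59), and D19Ertd737e (-1.52). Morc1 had 0.0684 and 0.0824 RPM in H3K27me3, against 1.46 and 1.04 RPM in input (log2 ratio -1.59, limma adjusted p 0.000214). The second value stands for no read and the first for 1 read. With windows averaging under 1 RPM over the 4 libraries left out, 0 windows were called lower, and 0 at an unadjusted p under 0.05. That filter fixes this count, since it kept 3380 windows, of which 3054 were called higher, and it says nothing about the lower calls.

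In knockout cells most of the same windows were marked. By the same rule 3406 windows were marked in knockout cells (13.1%) and 2541 in control cells (9.79%), and 2313 were shared, which is 67.9% of the knockout and 91.0% of the control windows. At the windows marked in control cells, H3K27me3 had medians of 6.14 and 4.08 RPM in knockout cells and 4.65 and 3.02 RPM in control cells. The inputs had 0.507 and 0.562 RPM in knockout cells and 0.547 and 0.486 RPM in control cells.

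The difference in ratio between knockout and control cells, fitted over 8 libraries with limma, was called at 0 windows (0% of all), with 1218 higher and 435 lower at an unadjusted p under 0.05. Its median was 0.27 over the marked windows, with a median SE of 0.53, and 0.08 over all windows. Control values chose these windows and also enter the difference. Without the first control H3K27me3 library 54 windows were called higher and 10 lower, and the median over marked windows was 0.53. Without the second it was 0.01, and 1 window was called.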

How the data were processed

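Chromatin and RNA libraries of mouse GSCs were analysed from the authors' deposited tables, which hold log2 RPM for 1 window per gene in 16 chromatin libraries and per gene in 4 RNA libraries, neither divided by input nor by gene length. Per the submitters' processing notes the build was mm10 and the tools were TopHat2 2.0.14, Bowtie 1.1.1, Trim Galore 0.4.0 and CASAVA 1.8, whose roles are not given. Library kits were NEBNext, per the labels' protocols; H3K9me3 used ThruPLEX.

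Values were converted to RPM by raising 2 to their power. Within a library they were whole multiples of 1 read, within 0.1 of a read, with no read stored as 0.9 of a step, which gave the depths. Since the unit is log2, limma was used in place of a count model.

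Ratios were taken on log2(RPM + 0.5) and tested in limma (version 3.58.1, under R 4.3.3), letting the prior variance follow mean level, for 2 H3K27me3 against 2 input libraries, two-sided, with Benjamini-Hochberg adjustment over 25965 windows. The prior degrees of freedom were infinite, so p-values rest on the spread shared by windows of like level. The scripts were tested on simulated data. Tables were made with pandas 2.3.3 and figures with matplotlib 3.10.9 in Python 3.11.15. Alternatives were other pseudocounts (0.1 and 1 RPM), a filter at 1 RPM, median centring, all 4 NEBNext inputs, voom on recovered reads, a replicate block and each library left out.

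Members and gene lists were chosen with earlier results of these data known. Named genes are the 12 highest marked windows, up to 3 marked genes per list, the 3 lowest windows called lower, the marked genes with the most RNA, marked Polycomb subunits and the highest ratios at low and high H3K4me3. The HoxB genes, microRNAs and protein-coding genes of high RNA were added after their values were seen. Some windows that the rule names are not reported here. Symbols matched RefSeq directly at 20595 windows and by synonym at 2385, and 2985 did not match. Intervals were not computed, and counting error at low reads adds to the spread shown.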

Additional observations from a re-analysis of the deposited data

How the results depend on the processing

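The count of windows called higher ran between 0 and 3733 with 1 library left out, and that of marked windows between 0 and 3519, with 0 reached without either input. With all 4 libraries, a log2 ratio of at least 1 in both pairs with no test gave 2541 windows. The loss of marked windows without an input thus came from the test and not from the ratio limit. A log2 ratio of at least 2 in both pairs left 801 marked windows. Other counts of higher and marked windows stayed within 1.5 times of 3368 and 2541. The count called lower was 232 with median centring and 428 with limma without the trend, which was chosen after seeing the data, and it ran between 0 and 640 with 1 library left out. It was 0 with the 1 RPM filter, which keeps windows mainly through high H3K27me3 and so fixes that count. The knockout minus control difference was called at 2 windows with a pseudocount of 0.1 RPM and at 5 with the 1 RPM filter, and at 0 to 64 with 1 library left out. The cause of the other changes was not tested.

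Same-numbered H3K27me3 and input libraries share only a number, and their deviations correlated at -0.0085 over 25965 windows. With the replicate number as a block, 3256 windows were called higher and 7 in the knockout minus control difference. The share of marked genes under 1 RPM of RNA was 76.2% with the ratio of at least 2 and 66.9% to 67.2% by single RNA library, and 55.2% were under 0.5 RPM. None of the 72 named windows reversed its direction in any alternative run. Most were picked by their ratios in the same libraries that these runs refit, so this is a description. In the alternatives that kept all 4 libraries, 1 of the 72 lost its call. Without either input 71 lost their call. Depth limits single windows: 74 marked windows had fewer than 5 input reads over both libraries.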

Other observations

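Some marked windows lay next to each other. The next window at least 5000 bases on was marked after 467 of 2539 marked windows (18.4%), against 10.1% after any window. Another marked start lay within 1000 bases of 206 marked windows (8.11%); whether such windows overlap is not given in the sources used here. The longest run of adjacent marked windows held 14, all protocadherin genes of the beta cluster on chromosome 18, adhesion genes of neurons, between Pcdhb9 and Pcdhb22. Of 24 windows whose symbol starts with Pcdha, Pcdhb or Pcdhg, 23 were marked, beside 9.79% of all windows. These 24 include the 14 of that run, and the family was chosen after its values were seen.

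On the X chromosome 56 of 1091 windows were marked (5.13%), against 2484 of 24483 autosomal windows (10.1%). The median input was 0.274 and 0.208 RPM on the X chromosome, against 0.547 and 0.555 RPM on autosomes, so X windows held fewer reads, and the part of depth in this share was not tested. Pseudogenes were marked at 102 of 649 windows (15.7%), against 2043 of 20430 protein-coding windows (10%), and lncRNA genes at 185 of 1842 (10%).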
